A study of Mus musculus with 6 samples.

Results

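The subject is a set of 36 mouse microglia genes, listed by name, out of the 32531 gene symbols in the count files. All 36 were in the files. Microglia are the resident macrophages of the brain. They arise from the blood-forming lineage and not from the neural one, and they survey the tissue through receptors for chemokines, nucleotides, lipids and cell debris. The genes in the set encode those receptors, the adaptor proteins that carry their signals, complement C1q, lysosomal proteins and the transcription factor Irf8.

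The RNA came from the cerebral cortex of adult mice that received no treatment. All carried the Htr4-EGFP/Rpl10a transgene (ES1299). In these animals a transgene under Htr4 regulatory sequence makes the ribosomal protein Rpl10a fused to EGFP. Htr4 encodes a serotonin receptor, and the series concerns pyramidal neurons. Translating ribosome affinity purification (TRAP) pulls tagged ribosomes out of the homogenate with antibodies to EGFP, so the bound RNA comes mainly from cells that make the tag. There were 3 such IP libraries and 3 input libraries of the same line. Both groups carried the transgene, and untagged animals or a mock purification were not analysed here. The tag marks every cell type in which the transgene is active, and strain, sex and the pooling of animals were not in the labels.

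IP libraries held 53147173 to 67559533 reads on genes and input libraries 37696125 to 52360452. Reads in rows that name no gene made up 43.7% to 46.3% of all listed reads in IP and 47.6% to 49.5% in input. Their make-up differed between the groups. Reads not mapped uniquely were 32.9% to 35.7% in IP and 21.1% to 23.3% in input. Reads outside any gene feature were at most 8.92% in IP and at least 16.7% in input. Reads ambiguous between genes were 1.77% to 1.91% in IP and 8.12% to 9.83% in input. Whether this difference affects the fold changes was not tested. Htr4 itself had 18.8 to 23.3 CPM in IP and 7.30 to 7.96 CPM in input. CPM is a gene's share of all reads on genes, as counts scaled to an equal total in every library. Its log2 fold change was 1.34 (SE 0.16, adjusted p = 5.7e-05). Here and below, log2 fold changes are IP over input with TMM scaling, and adjusted p-values come from the edgeR quasi-likelihood test over all 16506 tested genes.

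Almost all of the microglia genes were low in IP. Together they took 25.2, 34.2 and 27.5 CPM in IP replicates 1 to 3, against 202, 211 and 200 CPM in input replicates 1 to 3. The groups lay far apart, and the IP mean of 29.0 ± 4.68 CPM was 14.2% of the input mean of 204 ± 5.96 CPM (SD, n = 3 each). In reads, the 36 genes together had 1340, 2313 and 1848 in IP and 7612, 10655 and 10483 in input. IP differs from input by the purification of tagged ribosomes, so these levels do not measure the number of microglia or their RNA per cell. The source of the microglia gene reads left in IP was not tested.

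**Figure D1:**
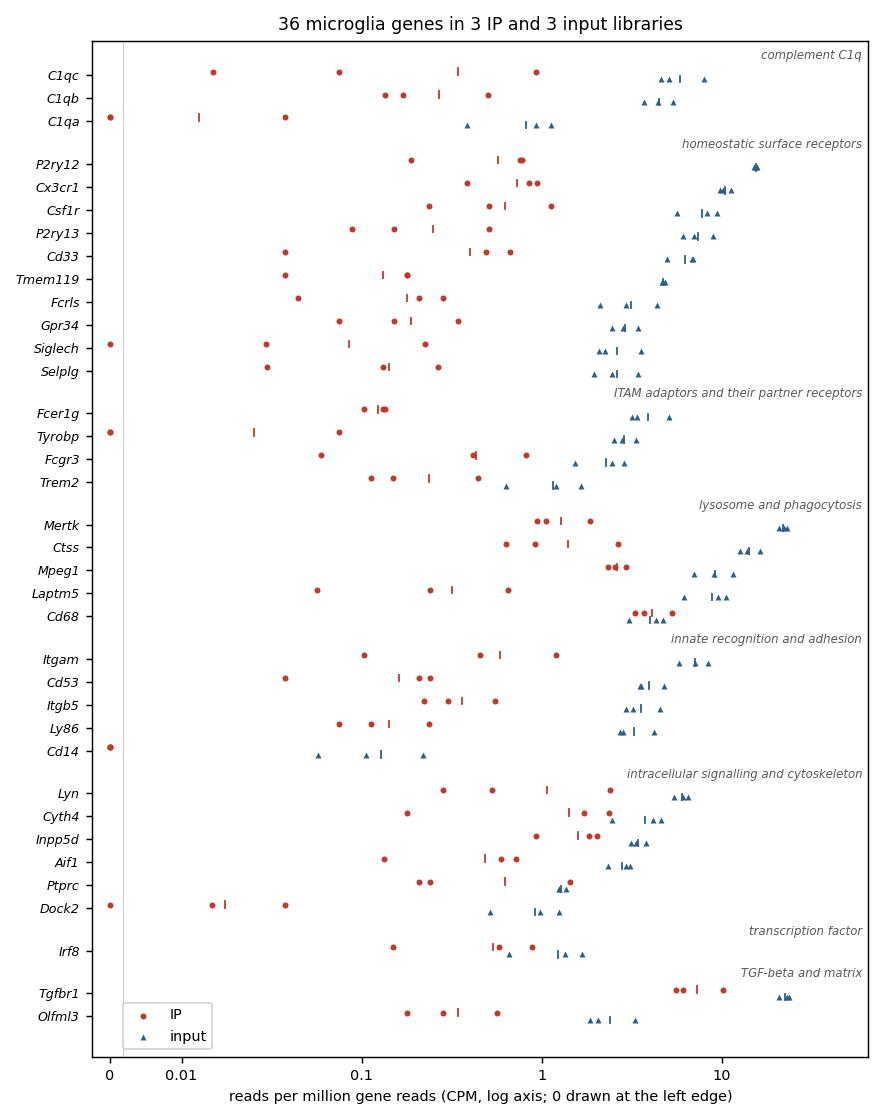
CPM of each of the 36 genes in the 3 IP libraries (red circles) and the 3 input libraries (blue triangles), on a log axis with 0 drawn at the left edge and short vertical lines at the group means. The IP libraries lie below the input libraries for 33 genes, and those of Cd68, Ptprc and Irf8 overlap with input.

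Of the 36 genes, 35 passed the filter on low counts, 31 were called lower in IP (adjusted p under 0.05), 0 were called higher and 4 were not called. Across all tested genes 23.4% were called lower and 21.3% higher. The count of 0 higher was the same by DESeq2 and limma-voom, and no member had a positive fold change in this fit. The filter needed 0.19 CPM in at least 3 libraries. For 24 of the 35 genes fewer than 3 IP libraries reached that level, so they passed only with the input libraries, which favours genes low in IP. Of these, 5 reached it in no IP library and 19 in 1 or 2. The other 11 reached it in all 3 IP libraries, and of these 9 were called lower. Over the 35 tested genes, with those 24 included, the median log2 fold change was -4.02, beside -0.02 over all tested genes. Over the 11 genes alone, log2 fold changes ran from -4.18 for Mertk to -0.06 for Cd68, with Lyn in the middle at -2.58. A fall of at least 4-fold was called for 28 microglia genes, again with those 24 included, and for 10.7% of all tested genes. All 3 IP libraries lay below all 3 input libraries for 33 of the 36 genes and for 26.5% of all tested genes.

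**Figure D2:**
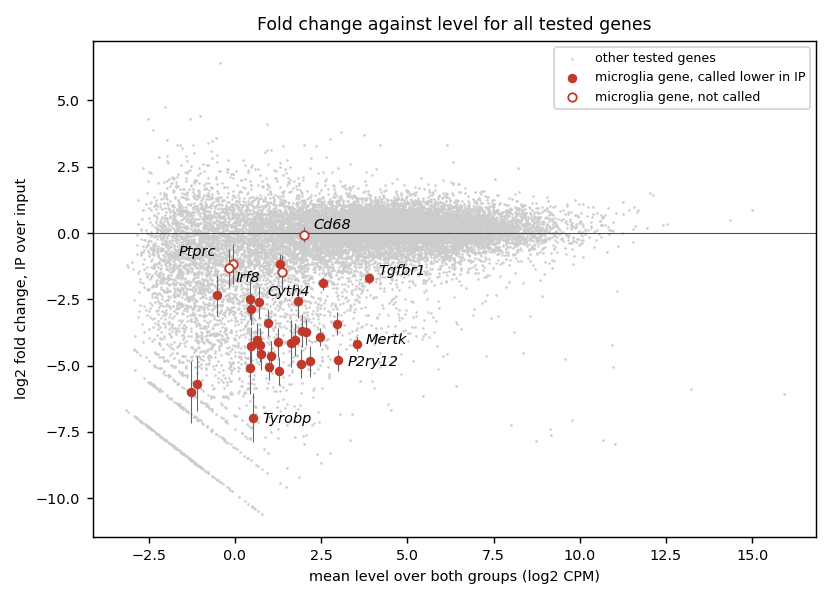
Log2 fold change of IP over input against the mean level of both groups (log2 CPM) for all 16506 tested genes (grey), with the 31 microglia genes called lower (filled red) and the 4 not called (open), bars showing the SE. The called genes run from -1.19 for Inpp5d to -6.96 for Tyrobp, and Cd68 lies at -0.06.

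Promoter windows were found for 28 of the 36 genes. The windows below run from 250 bases before to 50 bases after the annotated gene start (RefSeq, GRCm38.p6, printed on the strand of the gene). They are shown as a description of the gene set. A link between promoter letters and the level in IP was not tested, and IP against input does not measure promoter activity. PU.1, a transcription factor of the myeloid lineage, binds purine-rich DNA around the letters GAGGAA, which were searched for on both strands. Capitals mark those letters or, for the opposite strand, TTCCTC. Of the genes printed, C1qb, Aif1, Itgam, Cd53 and Cd68 hold a match and P2ry12 has none.
C1qb, chr4:136886151-136886450, minus strand: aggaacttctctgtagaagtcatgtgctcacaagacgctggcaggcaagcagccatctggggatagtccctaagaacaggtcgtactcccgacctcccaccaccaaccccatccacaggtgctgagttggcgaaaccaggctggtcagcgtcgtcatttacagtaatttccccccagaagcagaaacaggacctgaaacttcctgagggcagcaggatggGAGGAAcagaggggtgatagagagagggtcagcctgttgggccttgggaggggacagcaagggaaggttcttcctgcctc
Aif1, chr17:35176003-35176302, minus strand: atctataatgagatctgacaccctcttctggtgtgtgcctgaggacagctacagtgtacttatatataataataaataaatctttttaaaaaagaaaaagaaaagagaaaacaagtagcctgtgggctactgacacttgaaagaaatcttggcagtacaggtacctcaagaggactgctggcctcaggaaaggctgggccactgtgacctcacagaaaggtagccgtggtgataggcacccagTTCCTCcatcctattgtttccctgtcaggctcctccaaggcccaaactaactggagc
Itgam, chr7:128062390-128062689, plus strand: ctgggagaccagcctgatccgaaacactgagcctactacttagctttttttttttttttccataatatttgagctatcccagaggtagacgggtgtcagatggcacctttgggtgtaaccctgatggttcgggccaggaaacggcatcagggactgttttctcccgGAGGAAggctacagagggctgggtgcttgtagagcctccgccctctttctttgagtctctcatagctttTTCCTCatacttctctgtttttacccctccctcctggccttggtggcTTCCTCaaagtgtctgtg
Cd53, chr3:106790100-106790399, minus strand: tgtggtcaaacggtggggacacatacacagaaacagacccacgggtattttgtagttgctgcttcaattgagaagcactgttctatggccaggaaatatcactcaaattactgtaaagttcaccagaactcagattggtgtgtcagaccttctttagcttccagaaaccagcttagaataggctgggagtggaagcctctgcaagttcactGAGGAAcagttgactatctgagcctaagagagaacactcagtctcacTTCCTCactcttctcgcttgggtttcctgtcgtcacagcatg
P2ry12, chr3:59262936-59263235, minus strand: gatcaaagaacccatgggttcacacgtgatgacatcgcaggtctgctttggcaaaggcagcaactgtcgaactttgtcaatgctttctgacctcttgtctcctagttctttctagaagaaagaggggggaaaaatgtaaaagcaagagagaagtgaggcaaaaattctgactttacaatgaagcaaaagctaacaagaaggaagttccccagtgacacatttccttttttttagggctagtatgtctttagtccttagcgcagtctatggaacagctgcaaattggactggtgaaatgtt
Cd68, chr11:69666121-69666420, minus strand: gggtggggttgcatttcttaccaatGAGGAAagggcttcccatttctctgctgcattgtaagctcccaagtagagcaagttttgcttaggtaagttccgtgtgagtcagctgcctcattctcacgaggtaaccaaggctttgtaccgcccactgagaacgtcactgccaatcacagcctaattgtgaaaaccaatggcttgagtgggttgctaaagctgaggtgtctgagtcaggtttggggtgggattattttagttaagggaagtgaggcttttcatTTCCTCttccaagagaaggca

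The letters were present in a window of 19 of the 28 microglia genes (67.9%), compared with 31.3% of the 27025 genes in the promoter table. Itgam held 3 matches, and Cd53, Cd68, Ctss, Dock2 and Inpp5d held 2 each. Cx3cr1, P2ry12, Fcer1g, Irf8, Itgb5, Ly86, Mertk, Mpeg1 and Olfml3 held none in their windows. A match is a match of letters and not a binding site.

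The homeostatic surface receptors were low in IP. All 10 fell, and together they kept 5.22% of their input level. Cx3cr1 is the receptor for the neuronal chemokine fractalkine. It had 0.847, 0.385 and 0.939 CPM in IP, against 9.79, 10.1 and 11.2 CPM in input, a log2 fold change of -3.93 (SE 0.34, adjusted p = 4.8e-06). Its IP libraries were all under 1 CPM and its input libraries all above 9 CPM. P2ry12, the ADP receptor that draws microglial processes towards injury, had 0.188, 0.755 and 0.775 CPM in IP and 15.65, 15.39 and 15.03 CPM in input. Its log2 fold change was -4.80 (SE 0.39, adjusted p = 2.9e-06). The P2ry12 values of the groups lay far apart, and its input libraries were close to each other.

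Tmem119, a membrane protein used to tell microglia from other macrophages, had 2, 12 and 12 reads in IP and 183, 234 and 245 reads in input. In CPM that is 0.0376, 0.178 and 0.179 in IP and 4.86, 4.64 and 4.68 in input, and the log2 fold change was -5.20 (SE 0.53, adjusted p = 1.7e-05). IP reads were few but present in all 3 libraries. Csf1r, the receptor tyrosine kinase on which microglial survival depends, had 0.508, 0.237 and 1.12 CPM in IP and 5.65, 8.23 and 9.42 CPM in input. Its log2 fold change was -3.73 (SE 0.49, adjusted p = 0.00011), and -4.50 without IP replicate 3, the library in which its IP level was highest. Of its exon bases, 15.1% overlap Hmgxb3 on the opposite strand, so its reads are uncertain there.

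The other 6 receptors were the ADP receptor P2ry13, the lysophospholipid receptor Gpr34, the sialic acid binding receptors Siglech and Cd33, the Fc receptor-like gene Fcrls and the selectin ligand Selplg. Their means ran from 0.0851 CPM for Siglech to 0.399 CPM for Cd33 in IP, and from 2.61 CPM for Selplg to 7.34 CPM for P2ry13 in input. Log2 fold changes ran from -4.02 for Gpr34 and Cd33 to -5.10 for Siglech. Single IP libraries weighed on several of them. P2ry13 stood at -6.03 without IP replicate 3, and without IP replicate 2 Gpr34 stood at -4.78 and Selplg at -5.12. Siglech had 12, 2 and 0 IP reads and stood at -7.34 without IP replicate 1 and -4.50 without IP replicate 3. Siglech kept its call in both cases, at adjusted p = 7.5e-05 and 0.00071. Across the alternatives all 6 kept their call, with the highest adjusted p at 0.012 for Siglech. P2ry12 and P2ry13 lie 5389 bases apart on chromosome 3, and Tmem119 and Selplg 18019 bases apart on chromosome 5.

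The chains of complement C1q, the protein that starts the classical complement cascade and tags synapses for removal, were all low in IP. C1qa had 2, 0 and 0 reads in IP, against 35, 57 and 20 reads in input. C1qb had 9, 34 and 9 reads in IP and 139, 269 and 231 reads in input. C1qc had 4, 63 and 1 reads in IP and 301, 255 and 239 reads in input. All 3 fell, with log2 fold changes of -6.00, -4.13 and -4.16 (SE 1.2, 0.54 and 0.89; adjusted p = 0.0016, 9.7e-05 and 0.0026). The IP reads of C1qb and C1qc were mostly from IP replicate 2. Without that library their log2 fold changes were -4.96 and -7.12. Without IP replicate 1 no C1qa read was left in IP. The pooled counts put C1qa in IP at 1.34% of its input level, with a counting interval of 0.16% to 4.94%. The 3 genes lie side by side on chromosome 4 in the order C1qb, C1qc and C1qa (136880129 to 136898803, GRCm38, minus strand). They form one protein. Per length, C1qa was lower in input than both others, which did not differ beyond their spread: 0.782 ± 0.372 RPKM (CPM per kilobase of exon) for C1qa, 4.12 ± 0.759 for C1qb and 3.04 ± 0.958 for C1qc.

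Both ITAM adaptors fell. Tyrobp (DAP12) and Fcer1g (the Fc receptor gamma chain) carry the tyrosine motif through which Trem2, the Fc receptors and other partners reach the kinase Syk. Tyrobp had 4, 0 and 0 reads in IP, against 125, 141 and 131 reads in input. Its log2 fold change was -6.96 (SE 0.93, adjusted p = 0.00011), and pooled IP reads were at 0.75% of the input level (counting interval 0.204% to 1.95%). Without IP replicate 1 no Tyrobp read was left in IP, and without IP replicate 2 the log2 fold change was -6.37. Fcer1g had 7, 7 and 9 reads in IP and 127, 160 and 266 in input. The log2 fold change of Fcer1g was -5.05 (SE 0.50, adjusted p = 1.2e-05), and its 3 IP libraries lay between 0.104 and 0.134 CPM.

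Trem2, the lipid and apolipoprotein receptor that signals through Tyrobp, had 6, 30 and 10 reads in IP and 45, 83 and 33 reads in input. Fcgr3, an activating receptor for immunoglobulin G that signals through Fcer1g, had 22, 55 and 4 reads in IP and 108, 123 and 80 reads in input. Both were highest in IP replicate 2, and IP and input libraries did not overlap in CPM. Trem2 fell (log2 fold change -2.36, SE 0.77, adjusted p = 0.026), and so did Fcgr3 (log2 fold change -2.49, SE 0.74, adjusted p = 0.017). The Trem2 call was lost without input replicate 1 (adjusted p = 0.075), input replicate 2 (adjusted p = 0.13), IP replicate 1 (adjusted p = 0.057) or IP replicate 3 (adjusted p = 0.056), and across the alternatives tried p lay between 0.0082 and 0.13. The Fcgr3 call was lost without input replicate 1 (adjusted p = 0.075) or input replicate 2 (adjusted p = 0.060), and across the alternatives p lay between 0.0016 and 0.075. Without IP replicate 2 the log2 fold changes were -3.18 for Trem2 and -3.38 for Fcgr3. Pooled IP reads were at 21.4% (interval 15.1% to 29.8%) and 19.5% (15.1% to 25.0%) of the input level. These intervals cover counting error only, and the difference between the receptors and the adaptors was not tested.

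**Figure D3:**
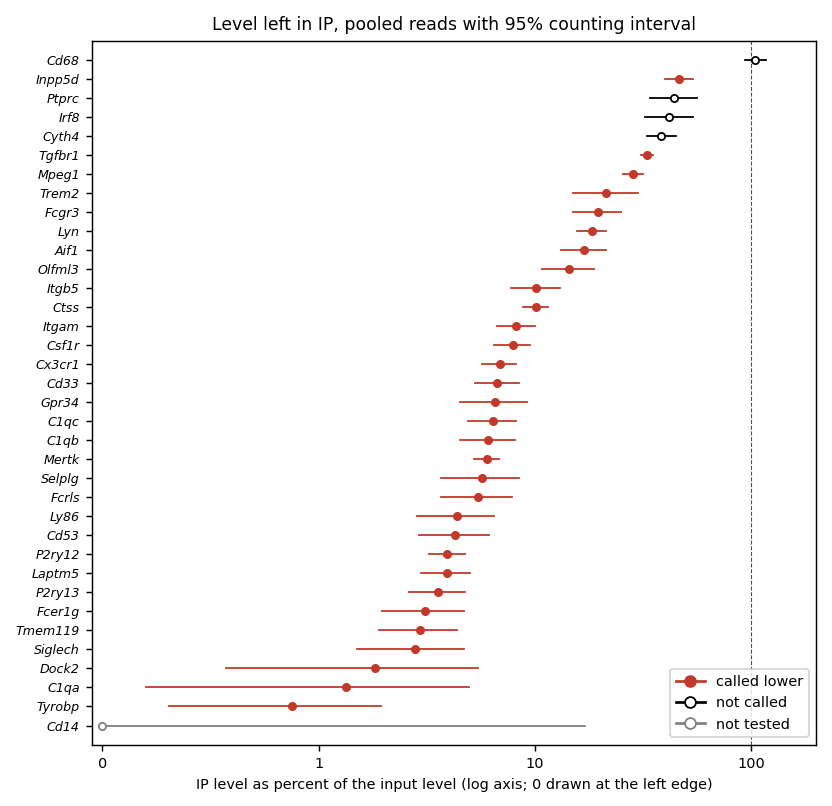
IP level of each gene as a percentage of its input level from pooled reads, on a log axis with 0 drawn at the left edge, with exact 95% intervals that cover counting error only. Filled points were called lower, black open points not called and the grey point (Cd14, at 0) not tested. Tyrobp, C1qa and Dock2 were under 2%, a middle group from Siglech to Itgam lay between 2.78% and 8.20%, and Inpp5d, Ptprc, Irf8, Cyth4, Tgfbr1 and Mpeg1 kept 28.4% to 46.2%, with Cd68 at 104%.

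Lysosomal and phagocytic genes split. Cd68, a lysosomal membrane glycoprotein widely used to stain active microglia, kept 104% of its input level. It had 3.29, 5.27 and 3.68 CPM in IP (175, 356 and 247 reads), against 4.30, 4.68 and 3.04 CPM in input (162, 236 and 159 reads). The libraries of the groups were interleaved, and IP was lower in lane 1 and higher in lanes 2 and 3. The log2 fold change was -0.06 (SE 0.30, adjusted p = 0.90), and its sign changed with the scaling and the libraries used. On total gene reads the log2 fold change was 0.03. Over all alternatives it ran from -0.28 to 0.09. The gene starts 782 bases beyond the end of Eif4a1, a translation initiation factor gene on the same strand of chromosome 11. Eif4a1 had 78.2, 82.6 and 82.0 CPM in IP and 66.3, 59.1 and 50.8 CPM in input. Whether reads running on from Eif4a1 add to Cd68 was not tested.

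The other 4 genes of this group fell. Mertk, a receptor for dying cells that astrocytes also make, had the highest CPM in input after Tgfbr1: it had 0.941, 1.85 and 1.06 CPM in IP and 22.1, 20.8 and 22.8 CPM in input (log2 fold change -4.18, SE 0.26, adjusted p = 4.6e-07). Ctss, the protease cathepsin S, had 49, 43 and 177 reads in IP and 519, 821 and 658 reads in input (log2 fold change -3.42, adjusted p = 8e-05). Its IP level rested on IP replicate 3, and the log2 fold change was -4.29 without that library. Laptm5, a lysosomal membrane protein of blood-lineage cells, had 3, 44 and 16 reads in IP and 396, 312 and 500 in input (log2 fold change -4.84, adjusted p = 5.7e-05, and -5.89 without IP replicate 2). Mpeg1, the pore-forming perforin-2, kept 28.4% of its input level: 2.54, 2.34 and 2.92 CPM in IP, against 9.02, 11.5 and 7.03 CPM in input (log2 fold change -1.90, SE 0.25, adjusted p = 9.9e-05). Mpeg1 was even across the IP libraries, with 135 to 196 reads in each, so its IP level does not rest on a single library.

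Genes of innate recognition and adhesion were low in IP. Itgam (the CD11b chain of complement receptor 3), the integrin chain Itgb5, the tetraspanin Cd53 and Ly86 (MD-1, a partner of the Toll-like receptor homologue RP105) all fell, with log2 fold changes of -3.68, -3.38, -4.66 and -4.58. Their highest adjusted p was 0.00056, for Itgam. Itgam had 24, 7 and 80 reads in IP and 218, 359 and 436 reads in input, and stood at -4.82 without IP replicate 3. A predicted gene of the same strand covers 68.7% of its annotated exon bases, but that gene is not listed in the count files. Itgb5 had 16, 15 and 37 reads in IP and 121, 229 and 153 in input. Cd53 had 2, 14 and 16 reads in IP and 134, 176 and 250 in input. Ly86 had 6, 16 and 5 reads in IP and 106, 212 and 143 in input, and stood at -5.18 without IP replicate 2. For each of the 4 genes all IP libraries lay below all input libraries.

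Cd14, the co-receptor for bacterial lipopolysaccharide, did not pass the filter. It had 0 reads in all 3 IP libraries, against 4, 11 and 3 reads in input. The exact counting interval of the ratio puts its pooled level at least 5.88-fold lower in IP. With no filter on low counts its adjusted p was 0.031.

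Of the 6 signalling and cytoskeletal genes, 4 fell and 2 were not called. Dock2, an exchange factor for Rac of blood-lineage cells, had 2, 1 and 0 reads in IP and 47, 49 and 27 reads in input (log2 fold change -5.69, SE 1.04, adjusted p = 0.00096, and -6.61 without IP replicate 1). Its pooled IP reads were at 1.82% of the input level (interval 0.371% to 5.46%). Lyn, a Src-family kinase, had 28, 161 and 19 reads in IP and 203, 326 and 320 reads in input. The log2 fold change of Lyn was -2.58 (SE 0.61, adjusted p = 0.0050), and -3.99 without IP replicate 2. Aif1, the calcium-binding protein Iba1 that is the common histological stain for microglia, had 38, 9 and 40 reads in IP and 110, 155 and 122 reads in input. In CPM Aif1 was 0.715, 0.133 and 0.596 in IP and 2.92, 3.07 and 2.33 in input, and it fell with a log2 fold change of -2.62 (SE 0.60, adjusted p = 0.0038). Its IP libraries all lay below its input libraries, and pooled IP reads kept 16.8% of the input level (interval 13.2% to 21.3%).

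Inpp5d (SHIP1), a phosphatase that opposes signalling by phosphoinositide 3-kinase, had 1.83, 0.932 and 2.01 CPM in IP and 3.32, 3.77 and 3.11 CPM in input. It fell least among the called genes (log2 fold change -1.19, SE 0.39, adjusted p = 0.027). That call was lost without input replicate 1, 2 or 3 (adjusted p = 0.067, 0.092 and 0.067) and without IP replicate 2 (adjusted p = 0.056), and across the alternatives p lay between 0.0097 and 0.092. Ptprc, the phosphatase CD45 of all nucleated blood-lineage cells, had 76, 14 and 16 reads in IP and 47, 63 and 71 reads in input. In CPM Ptprc was 1.43, 0.207 and 0.239 in IP and 1.25, 1.25 and 1.36 in input, so IP replicate 1 lay above every input library and the other two lay far below. It was not called (log2 fold change -1.16, SE 0.76, adjusted p = 0.24). Without IP replicate 1 the log2 fold change was -2.59 (adjusted p = 0.010), and limma-voom called it as well (adjusted p = 0.042), and across the alternatives p lay between 0.010 and 0.44. The summed level of 10 border macrophage genes was also highest in IP replicate 1, at 3.84 CPM, beside 1.36 and 1.62 CPM in the other IP libraries. F13a1 gave 2.11 and Cd163 1.39 of those 3.84 CPM. F13a1 had 112, 17 and 22 reads in IP and 53, 48 and 38 reads in input. The other markers did not share this order: Mrc1, Pf4 and Clec10a were highest in IP replicate 3 and Lyve1 in IP replicate 2. Stab1 had 3, 0 and 0 reads in IP, and Ms4a7, Cbr2 and Cd209f had 0 in each IP library. The part of other macrophages in the Ptprc reads was not tested.

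Cyth4, an exchange factor for Arf proteins of blood-lineage cells, had 91, 160 and 12 reads in IP and 173, 210 and 129 reads in input. In CPM Cyth4 was 1.71, 2.37 and 0.179 in IP and 4.59, 4.16 and 2.46 in input, with all IP libraries below all input libraries. It was not called (log2 fold change -1.49, SE 0.66, adjusted p = 0.087). With a replicate block, which pairs the libraries of a lane, its log2 fold change was -1.95 (adjusted p = 0.015). It was also called without IP replicate 2 (log2 fold change -2.09, adjusted p = 0.030) and by DESeq2, limma-voom and the fit with no filter, and across the alternatives p lay between 0.015 and 0.24.

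Irf8, a transcription factor needed for microglial development, was the only transcription factor in the set. It had 0.884, 0.577 and 0.149 CPM in IP (47, 39 and 10 reads), against 1.35, 0.654 and 1.68 CPM in input (51, 33 and 88 reads). Within every lane the IP library was the lower, but the groups overlapped. The log2 fold change was -1.31 (SE 0.73, adjusted p = 0.17), and across the alternatives p lay between 0.082 and 0.44.

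Tgfbr1 and Olfml3 complete the set. Tgfbr1, a receptor for TGF-beta that many cell types make, had 5.57, 10.1 and 6.11 CPM in IP and 20.6, 23.6 and 23.0 CPM in input. It fell with a log2 fold change of -1.71 (SE 0.22, adjusted p = 9.7e-05) and kept 32.8% of its input level (interval 30.8% to 34.96%). With 296 to 685 IP reads in each library it was the best covered of the set. Olfml3, a secreted matrix protein made by microglia, had 15, 12 and 38 reads in IP and 77, 166 and 97 reads in input (log2 fold change -2.88, SE 0.59, adjusted p = 0.0019, and -3.47 without IP replicate 3).

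The make-up of the summed level is given as a description. The 3 genes with the highest IP means, Tgfbr1, Cd68 and Mpeg1, made up 25.1%, 14.1% and 8.97% of the summed level of the 36 genes in IP. Together these genes, picked for their IP level, made up 48.1% of the sum in IP and 17.4% in input. The receptors of the homeostatic group made up 11.3% of the sum in IP and 30.8% in input. The signalling and cytoskeletal group made up 17.9% in IP and 8.85% in input.

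**Figure D4:**
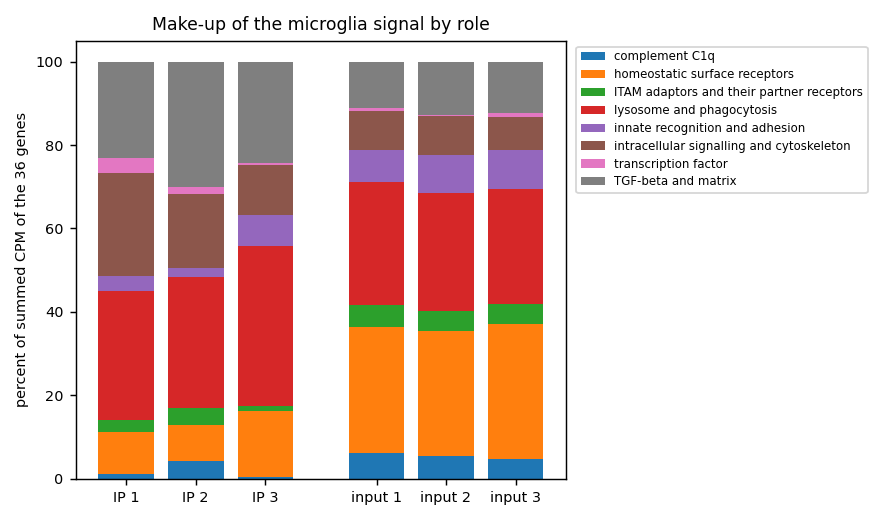
Percentage of the summed CPM of the 36 genes that falls to each role group, for IP replicates 1 to 3 (left) and input replicates 1 to 3 (right). The homeostatic receptors (orange) are at 11.3% of the mean IP sum and 30.8% of the mean input sum.

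Single genes spread more among IP than among input libraries. Among input libraries the ratio of the highest to the lowest CPM had a median of 1.54 over the 36 genes and reached 3.81 at most. Among IP libraries the ratio was over 5 or had a library at 0 reads for 19 of the 36 genes. For the 31 genes with reads in all 3 IP libraries its median was 4.72. No single IP library held the residual signal: 8 genes were highest in IP replicate 1, 14 in IP replicate 2 and 13 in IP replicate 3. In IP, 25 genes were under 1 CPM in all 3 libraries, and 5 had a library with 0 reads. Read numbers this small limit the precision of each IP value.

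Levels per length place the genes within input cortex. Per kilobase of merged GENCODE exon, Ctss was highest in input at 10.5 ± 1.40 RPKM. P2ry12 followed at 6.03 ± 0.122 and Mertk at 5.05 ± 0.236. Fcer1g, at 4.43 ± 1.20 RPKM, Tyrobp, at 4.31 ± 0.618 RPKM, and C1qb, at 4.12 ± 0.759 RPKM, did not differ from one another beyond their spread. The authors' annotation is unknown, so these lengths are approximate. The lowest were Ptprc at 0.0701 ± 0.0034 RPKM over 18313 exon bases, Cd14 at 0.0734 ± 0.0476 RPKM and Dock2 at 0.0798 ± 0.0323 RPKM. They did not differ from one another beyond their spread. The place of Ptprc depends on the length used, since its input mean was 1.28 CPM, beside 0.911 CPM for Dock2 and 0.127 CPM for Cd14.

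Beyond the 36 genes, 68 other genes of microglia and the myeloid lineage were examined. Of 59 tested, 36 fell, 4 rose and 19 were not called (median log2 fold change -2.21). Over all tested genes 23.4% were called lower and 21.3% higher. The bacterial lipopolysaccharide receptor Tlr4 had 0, 0 and 1 reads in IP and 56, 31 and 85 in input. Adgre1, the macrophage antigen F4/80, had 1, 0 and 0 reads in IP and 41, 43 and 51 in input. Itgal, an integrin chain of leukocytes, rose most, with 1.88, 4.54 and 7.47 CPM in IP and 1.11, 0.813 and 1.49 CPM in input (log2 fold change 1.93, SE 0.50, adjusted p = 0.0081). The other genes that rose were Cd83, Csf2ra and Ctsb, named after their values were seen. Mef2c, a transcription factor that cortical neurons also use, had the most reads and fell by 0.53 on the log2 scale.

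Of the 8 lineage transcription factors in that list, 6 fell, beside 23.4% lower and 21.3% higher over all tested genes. Spi1, which encodes PU.1, had 0, 7 and 5 reads in IP and 11, 52 and 34 reads in input (log2 fold change -3.47, SE 1.03, adjusted p = 0.017). Runx1 had 7, 5 and 2 reads in IP and 106, 95 and 138 in input (log2 fold change -5.05, adjusted p = 0.0001). Of the signalling genes that lie beyond the ITAM adaptors, 8 of 14 tested fell and 0 rose. Their kinase Syk was not called, at 2.35 ± 0.90 CPM in IP and 1.82 ± 0.28 CPM in input (log2 fold change 0.28, adjusted p = 0.62).

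Of 12 ligand genes of microglial receptors, 4 fell, 0 rose and 8 were not called (median log2 fold change -0.08), beside 23.4% lower and 21.3% higher over all tested genes. Apoe and Tgfb1, which both fell, are also in the list of other microglia and myeloid genes and are counted in both. Ligands and receptors were not tested against each other. The summed ligand level was 951, 1052 and 1126 CPM in IP and 958, 1050 and 996 CPM in input. Cx3cl1 encodes fractalkine, the ligand of Cx3cr1. It had 280 ± 47.3 CPM in IP and 226 ± 16.9 CPM in input (log2 fold change 0.22, adjusted p = 0.18). The Csf1r ligand Il34 had 12.4 ± 0.996 CPM in IP and 10.9 ± 1.41 CPM in input (adjusted p = 0.72), while the other ligand of that receptor, Csf1, fell (log2 fold change -1.28, SE 0.23, adjusted p = 0.00092). The inhibitory ligands Cd200 and Cd47 had log2 fold changes of 0.30 and 0.24 (adjusted p = 0.052 for each). For the receptor Mertk, the bridging ligand Gas6 was not called (log2 fold change 0.37, adjusted p = 0.062) and Pros1 fell (log2 fold change -2.03, adjusted p = 0.0055). Tgfb2 was not called and spread widely in IP, at 23.8 ± 19.9 CPM in IP and 12.7 ± 2.71 CPM in input, while Tgfb1 fell, with 3, 2 and 1 reads in IP and 22, 31 and 34 in input. Apoe, a Trem2 ligand that astrocytes make in quantity, fell by 4.06 on the log2 scale. App and the integrin ligand Icam1 were not called (log2 fold change -0.23 and -0.75).

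Other lists place these values. Of 10 border macrophage genes 5 were tested and 3 fell: Pf4, Mrc1 and Lyve1. Mrc1, the mannose receptor, had 7, 7 and 15 reads in IP and 97, 183 and 128 in input. Of 10 leukocyte genes none could be tested, and their summed level was 0.0444 to 0.15 CPM in IP and 0.267 to 1.82 CPM in input, with Cd3e holding the most reads. The 15 oligodendrocyte genes kept 12.3% of their input level and the 15 astrocyte genes 23.8%, beside 14.2% for the microglia genes. These summed shares lean on a few genes. In IP, Slc1a2 gave 832 of the 1195 CPM of the astrocyte sum and Mbp 106 of the 206 CPM of the oligodendrocyte sum. Tgfbr1, Cd68 and Mpeg1 together gave 48.1% of the microglia sum in IP. The median share left over the single microglia genes was 6.60%. Within lanes 1, 2 and 3 the share left was 12.5%, 16.2% and 13.8% for the microglia genes, 12.2%, 12.5% and 12.2% for the oligodendrocyte genes and 23.3%, 23.1% and 24.9% for the astrocyte genes. The medians over tested genes were -4.02 for microglia, -3.68 for oligodendrocytes and -2.82 for astrocytes. The microglia median includes the 24 genes that passed the filter only with the input libraries. Of 13 endothelial genes 11 were tested and 7 fell, and of 15 neuronal genes 11 rose and 1 fell. Beside these counts, 23.4% of all tested genes were called lower and 21.3% higher. Differences between the lists were not tested.

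**Figure D5:**
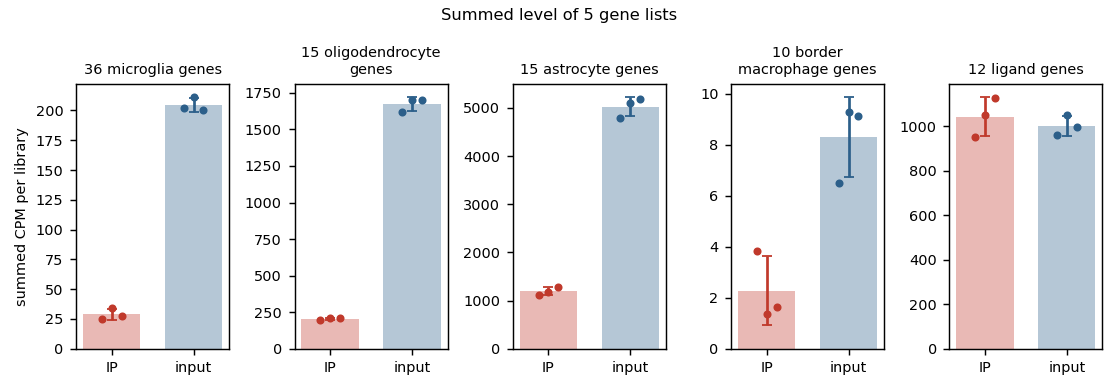
Summed CPM per library of 5 gene lists, with IP (red) left of input (blue) in each panel, bars and error bars giving mean ± SD and points the 3 libraries. The microglia sum is 29.0 CPM in IP and 204 CPM in input, while the ligand sum overlaps between the groups.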

How the data were processed

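The authors deposited raw counts of reads per gene symbol, 1 file per library, with no normalization. Reads were aligned with STAR 2.0.0e to mm10 and HTSeq was used, per the submitters' processing notes. For HTSeq, the version, the strand setting and the gene models used were "not given in the sources used here", so overlapping and antisense genes cannot be told apart.

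Rows naming no gene were left out, 43.7% to 49.5% of listed reads. The 36 genes and all lists were chosen with earlier results of these data known. Counts were tested across 16506 genes in R 4.3.3 with edgeR 4.0.16, by its quasi-likelihood test: TMM scaling, filterByExpr, a group term, Benjamini-Hochberg adjusted p under 0.05, two-sided. The method was run on simulated counts with the same spread for every gene and group. The microglia genes spread more in IP, so that run does not show how accurate their calls are. CPM uses total gene reads. SE is derived from the test statistic. Counting intervals are exact binomial at 95% and cover counting error only. Lane ratios of CPM used a pseudocount of 0.05.

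Every one of the 36 genes is named. In the other lists the 2 called genes that moved most, the 1 that moved most the other way, the gene with most reads and all ligands may be named, and others were chosen after their values were seen. Positions, lengths and overlaps come from GENCODE M21 (GRCm38, equal to mm10), and promoters from RefSeq on GRCm38.p6.

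Replicate numbers equal the sequencing lane in the labels, with 1 IP and 1 input library per lane. Deviations from group means correlated at 0.126, 0.0873 and 0.0461 within lanes 1 to 3, against -0.0835 to 0.00528 between lanes. All IP libraries carried one index and all inputs another, so index and group cannot be told apart. The labels do not state separate animals, so p-values reflect library-to-library spread alone, possibly technical. No libraries were copies (chi-square per degree of freedom 56.3 to 65.2 among IP and 22.0 to 28.8 among input libraries).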

Additional observations from a re-analysis of the deposited data

How the results depend on the processing

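Alternatives were RLE size factors, total gene reads, no filter, at least 1 CPM in 3 libraries, a mean of at least 0.5 CPM over all 6 libraries, DESeq2 1.42.0, limma-voom (limma 3.58.1), a replicate block, and each library left out. The number of microglia genes called lower ran from 28 to 33 and the number called higher was 0 in each. Leaving out a library gave 28 to 31. Of the 31 called genes, 28 kept the call wherever they were tested, and Trem2, Fcgr3 and Inpp5d lost it without some libraries. The replicate block changed the call of Cyth4 alone among the 36 (32 called lower, log2 fold change of Cyth4 -1.95, adjusted p = 0.015). Cd68, not called in any fit, changed sign with total gene reads (log2 fold change 0.029), without input replicate 1 (0.015) or 2 (0.039) and without IP replicate 1 (0.091) or 3 (0.011); it was -0.28 without IP replicate 2. Over the 484 refits of single genes, 462 kept direction and call, 10 lost the call, 7 gained it and 5 changed sign. The summed level in IP ran from 12.7% to 15.1% of input, the low end with 2 symbols (Rn45s and AK140265) left out of the total. Over all tested genes 3109 to 4430 were called lower and 2673 to 4255 higher, within 1.5 times of 3864 and 3523. Total gene reads moved the split to 3439 lower and 4255 higher. IP reads per gene, often under 50, limit each IP value.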
